A study of Mus musculus with 36 samples.

Results

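The cytosolic ribosomal proteins are the structural proteins of the ribosome that works in the cytoplasm. They were taken as every probe set whose single annotated gene symbol was Rpl or Rps followed by a digit, or Rplp0, Rplp1, Rplp2 or Rpsa, without the Rps6k kinases, pseudogenes and Rps4l. This gave 47 probe sets for 34 genes, 17 of the large and 17 of the small ribosomal subunit, out of 12422 probe sets in all, whose single symbols name 8251 genes. Another 39 probe sets carried a ribosomal protein symbol together with other symbols and were not members.

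A cytosolic ribosome is built from a large subunit, which joins amino acids, and a small subunit, which reads the message. Each subunit is an rRNA core bearing many small basic proteins, most of them used once per ribosome, so the cell has to make the proteins in matched amounts. Their messages are short and abundant and begin with a run of pyrimidines (a TOP sequence) through which growth signals set their translation. In skeletal muscle, making ribosomes is a known part of growth and of regeneration after injury.

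RNA of diaphragm, the main muscle of breathing, was hybridised to 36 one-colour Affymetrix arrays. The mice were mdx or control, aged 7, 14, 23, 28, 56 or 112 days, with 3 arrays in each of the 12 groups. The mdx mouse lacks full-length dystrophin in all tissues because of a point mutation in Dmd, and controls carry no labelled allele or treatment. Strain, sex and pooling are not stated in the labels, and nothing there ties an array to its own animal, so p-values describe the spread between arrays, which may be technical.

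Signals are arbitrary units of probe set brightness, already brought to a common level by the depositors, and cannot be compared between probe sets. Differences are mdx minus control on the scale of log2(signal + 32), which understates changes of dim probe sets. A member is called when its adjusted p is under 0.05 in limma, with Benjamini-Hochberg adjustment over all 9291 probe sets bright enough to be tested. In whole tissue, fewer cells of a type and less RNA per cell cannot be told apart.

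All 10 muscle markers were detected, with a summed signal of 97863 to 306791 on mdx and 121005 to 322218 on control arrays. From 23 days on, 10 tested macrophage markers (of 12 listed) summed to 43266 to 89596 on mdx and 13868 to 22734 on control arrays. All 7 fibroblast and matrix markers were tested, and summed to 103423 to 162905 on mdx and 85488 to 91068 on control arrays at 56 days, and to 128287 to 153002 on mdx and 58756 to 69750 on control arrays at 112 days. Markers of proliferating cells (9 tested of 12) summed to 7016 to 12345 on mdx and 4642 to 7510 on control arrays from 23 days on. No value in the table was 0. mdx replicate 1 at 56 days stood apart, with the lowest summed signal of the members, 276320 against 332560 to 637460 on the other 35 arrays, and the lowest signal of the 5' Gapdh control, 3515. Albumin, a liver product, was above 10000 on 9 arrays of both genotypes. They include 2 of the 3 control arrays and 1 of the 3 mdx arrays at 112 days, and 1 array of each genotype at 7 days.

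The members fell into a bright and a dim class. Of the 47 probe sets, 20 had a mean signal above 10000, 5 lay between 600 and 10000, and 22 were below 600. The brightest were those for Rps24 (97696_r_at, mean 39061), for Rplp0 (mean 37084), which anchors the acidic stalk proteins of the large subunit, and for Rps4x (100780_at, mean 33815), a small-subunit protein encoded on the X chromosome. The dimmest were those for Rpl38 (99626_i_at, mean 56.0), Rps15 (mean 70.1) and Rps4x (162229_at, mean 80.4). Since probe sets for Rps4x stand at both ends, this range describes the probes and not the transcripts. The threshold for testing, a signal above 374.5 on at least 3 arrays, was passed by 38 probe sets for 28 genes. The 9 that did not pass include the only probe sets for Rps15, Rps20 and Rpl39 and for the paralogs Rpl39l and Rps27l, so 6 genes are without a test. Among genes with several probe sets, 7 had at least 2 that were tested. Rpl41 was read by 1 probe set, 100213_f_at, whose suffix marks probes shared within a family of similar sequences, so signal from near-identical copies cannot be separated.

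Promoter sequence is shown because the members are often described as a jointly regulated family. RefSeq windows of 250 bases before to 50 bases after the transcription start (GRCm38.p6) were found for 28 of the 34 genes, 37 windows in all. The motif CGGAAG, the core bound by ETS-family factors, was present on either strand in 20 of 37 windows, or 54.1%, against 16.9% of 32851 windows of all genes. CTTTC, a short pyrimidine run, was in 86.5% of member windows and 57.3% of all windows, and GGGCGG, the core of GC boxes, in 56.8% and 35.7%. TATAAA, the TATA box, was in 10.8% and 13.6%. Each motif was searched on both strands, and 1 stretch can count for both GGGCGG and CGGAAG, which share letters. The 100 bases before the start are printed for the members that the results turn on most, 5' to 3' on the minus strand, with CGGAAG or its complement CTTCCG in capitals. Rpl41 lies at chr10:128549169-128549268, Rps28 at chr17:33824563-33824662 and Rpl13a at chr7:45128746-45128845, where no match was found.
Rpl41: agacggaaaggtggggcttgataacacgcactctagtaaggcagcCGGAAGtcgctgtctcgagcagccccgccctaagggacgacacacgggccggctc
Rps28: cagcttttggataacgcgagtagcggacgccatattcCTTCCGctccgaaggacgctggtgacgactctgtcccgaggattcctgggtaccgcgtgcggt
Rpl13a: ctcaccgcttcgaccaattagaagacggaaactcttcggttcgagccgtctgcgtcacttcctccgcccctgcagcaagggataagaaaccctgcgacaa

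Few ribosomal proteins were called between mdx and control diaphragm, and Rpl41 stood far from the rest. Averaged over the 6 ages, 3 of 38 members were called (7.89%), against 17.8% of all probe sets tested. Rpl13a and Rpl10a were higher in mdx and Rpl41 was lower, where 10.4% of all probe sets were called higher and 7.41% lower. The median member difference was 0.06 log2 units, against 0.03 for all probe sets, and 28 members lay above 0 and 10 below. Members ran from -1.45 (Rpl41) to 0.72 (Rps4x 161654_r_at, adjusted p = 0.0729). Reducing the family to 1 probe set per gene left the counts of called members within 1.5 times in all 12 comparisons. As 28 genes are then tested, the shares of members are higher where counts stay. Called were 3 of 28 over all ages (background 17.8%) and 6 of 28 at 112 days (background 12.2%).

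By age, no member was called at 7 days, where 0.463% of all probe sets were called, or at 14 days, where 0.194% were. Unadjusted p-values under 0.05 were found for 7 members at 7 days and 0 at 14 days. At 23 and 28 days 1 member, Rpl13a, was called, against 3.49% and 2.96% of all probe sets. At 56 days 5 of 38 were called (13.2%, background 16.7%), 3 higher and 2 lower, where 9.27% of all probe sets were higher and 7.38% lower. At 112 days 6 of 38 were called (15.8%, background 12.2%), 5 higher and 1 lower, where 7.65% were higher and 4.52% lower. With quantile normalization 12 of 38 were called at 112 days, 11 higher and 1 lower, where the background was 13.6%, and 8 over all ages, 7 higher and 1 lower, where it was 16.3%. How the members' share stands against the background therefore depends on the scaling.

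The middle of the family differed between ages, which was not tested. Its median difference was 0.16 at 7 days, 0.06 at 14, -0.06 at 23, 0.00 at 28, -0.16 at 56 and 0.28 at 112 days, while the median of all probe sets was 0.04, 0.00, -0.01, -0.04, 0.15 and 0.02. These values depend on scaling. When arrays were instead brought to the same median, all probe sets had a median of -0.10 at 56 days and the members -0.42, and the 5 calls were 0 higher and 5 lower. With quantile normalization the members' median was 0.05 at 7 days, 0.07 at 14 and 0.03 at 23. It was 0.07 at 28, 0.13 at 56 and 0.32 at 112 days.

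All 3 mdx arrays lay above all 3 control arrays for 7 members at 7 days, 6 at 14, 4 at 23, 3 at 28, 10 at 56 and 10 at 112 days. They lay below for 0, 0, 10, 1, 3 and 1. Over all probe sets the groups were separated in 15.4%, 12.9%, 22.9%, 21.5%, 36.9% and 23.5%, in order of age.

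**Figure D1:**
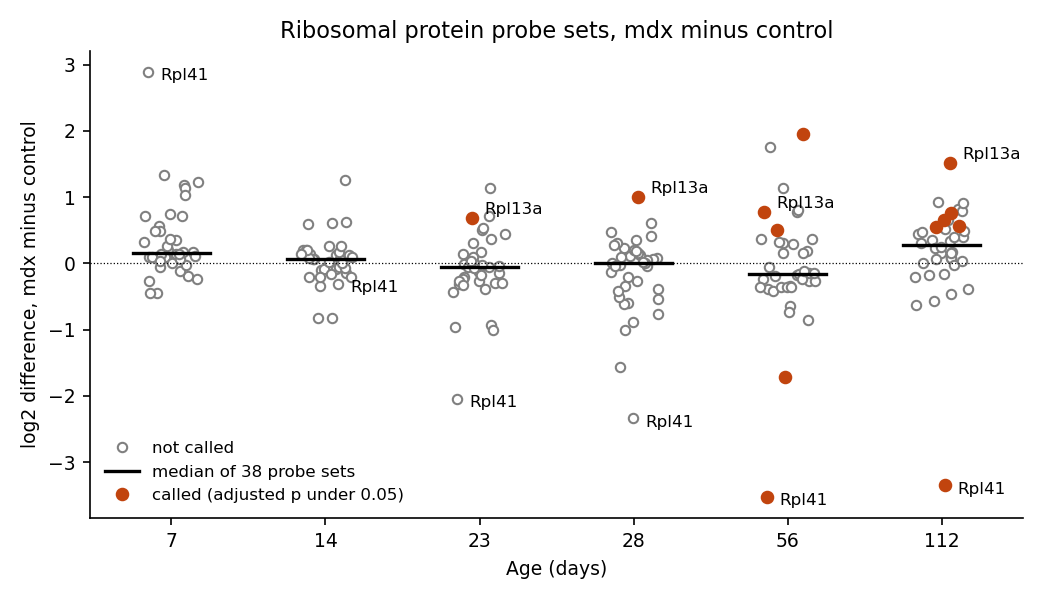
Each point is 1 of the 38 tested ribosomal protein probe sets, placed by age in days on the horizontal axis (points are spread sideways for clarity) and by its log2 difference, mdx minus control, on the vertical axis. Filled points are called, black lines are medians, and Rpl41 moves from 2.89 at 7 days to -3.52 at 56 and -3.35 at 112 days while the medians stay between -0.16 and 0.28.

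Rpl41 is the smallest protein of the large subunit, a short and very basic peptide. At 7 days its signal was 27571, 472 and 7198 in mdx replicates 1 to 3 and 1605, 213 and 588 in control replicates 1 to 3. At 14 days it was 26276, 31121 and 52619 in mdx and 54620, 33728 and 44664 in controls. Groups overlapped at both ages, and at 14 days every array was bright. At 23 days Rpl41 read 6720, 2616 and 543 in mdx and 8204, 9824 and 8800 in controls. At 28 days it read 2780, 500 and 390 in mdx and 10846, 1603 and 4573 in controls. The 23-day groups did not overlap, and at 28 days mdx replicate 1 was brighter than control replicate 2. At 56 days mdx arrays read 578, 15136 and 1083 and control arrays 32383, 30096 and 15979. At 112 days mdx arrays read 3303, 2341 and 2978 and control arrays 43025, 16659 and 34855. All mdx arrays lay below all control arrays at both of these ages, although mdx replicate 2 at 56 days came close to control replicate 3.

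**Figure D2:**
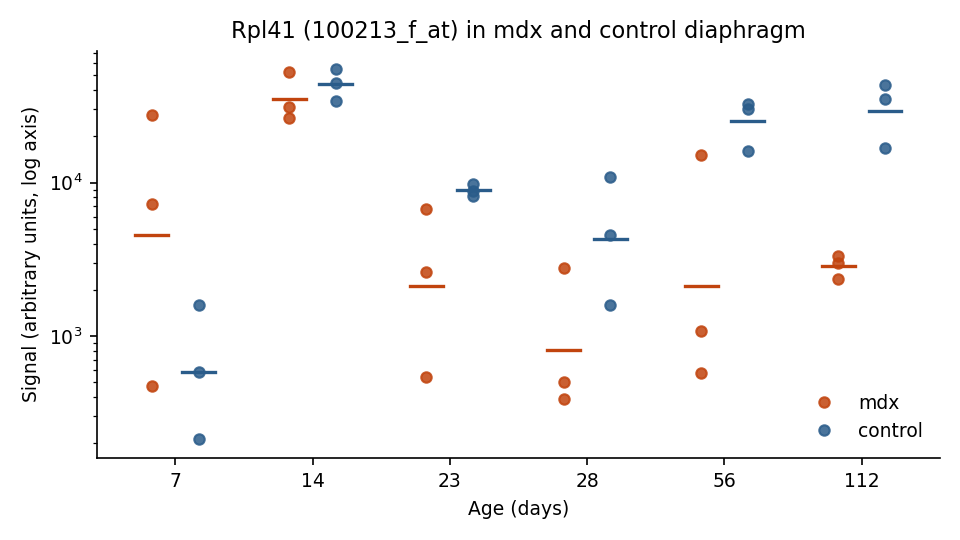
Signal of the Rpl41 probe set in arbitrary units (log axis) against age in days, with 1 point per array, mdx left of control, and lines at the geometric mean of the 3 arrays. At 56 and 112 days every mdx point lies below every control point, at 7 days the order of the means is the other way, and the mdx points spread by over 10-fold at 7, 23 and 56 days.

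In the fit, Rpl41 was lower in mdx by a log2 difference of -1.45 ± 0.432 (SE) as the mean over ages (adjusted p = 0.0173). The 56-day difference of -3.52 ± 1.06 (adjusted p = 0.0202) and the 112-day difference of -3.35 ± 1.06 (adjusted p = 0.0342) were also calls. No call was made at the other ages, where the 7-day difference was 2.89 (adjusted p = 0.293), the 14-day one -0.31, the 23-day one -2.04 (adjusted p = 0.392) and the 28-day one -2.34 (adjusted p = 0.332). Without mdx replicate 2 the 7-day difference was a call in the other direction (4.49, adjusted p = 0.0346). The mean over ages was called whichever of the 36 arrays was left out (-1.68 to -1.18, highest adjusted p = 0.0332). With only the 6 arrays of that age in the fit, the 56-day value was not a call (-3.52, adjusted p = 0.0537). At 56 days no call remained without mdx replicate 1 (-2.60, adjusted p = 0.145) or 3 (-3.04, 0.0803) or control replicate 1 (-3.34, 0.0709) or 2 (-3.39, 0.0672). The 112-day call was lost without any 1 of 5 arrays of that age, with an adjusted p of up to 0.105. Without the 9 arrays with high albumin, the Rpl41 difference was -1.80 over all ages (adjusted p = 0.0395), and neither the 56-day value (-3.34, adjusted p = 0.0815) nor the 112-day value (-3.76, adjusted p = 0.202) was a call.

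Whether Rpl41 was alone in its fall was asked by comparing it with the other members on the same arrays. Each array was centred on the median log2 signal of its 38 members. The mdx minus control difference of centred Rpl41 was -1.48 ± 0.291 (SE) over all ages (adjusted p = 0.000318). It was -3.15 in 56-day (adjusted p = 0.00325) and -3.60 in 112-day diaphragm (adjusted p = 0.000826). This difference was the lowest of the 38 members at 23, 28, 56 and 112 days and over all ages, and the highest at 7 days. After centring 0 members were called at 7, 23 or 28 days, so the ranks there come without a call. With the actin ratio as a covariate, given further on, the centred difference of Rpl41 over all ages was not a call (-0.93, adjusted p = 0.0745). After centring, Rpl41 was the only member called lower at 112 days, where 1 member was called (background 1.7%), and over all ages, where 2 were called (background 3.84%). The other was Rpl13a, higher by 0.60 (adjusted p = 0.0104). At 56 days 4 members were called (background 4.25%). Rps28 98085_f_at, annotated to a small-subunit protein, was lower there by -1.34 (adjusted p = 0.0146). It has the same suffix as the Rpl41 probe set, so signal from similar sequences cannot be separated for it either. Rpl19 161961_at and Rps4x 161654_r_at were higher, by 2.33 and 2.12.

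Rpl41 was thus the only member called lower over all ages, and shared the call with Rps28 98085_f_at at 56 days. At that age Rps28 98085_f_at read 2893, 37623 and 11247 on mdx arrays and 37406, 42987 and 26864 on control arrays. mdx replicates 1 and 3 lay below all controls and mdx replicate 2 among them. The difference was -1.71 ± 0.555 (SE, adjusted p = 0.032), and the call was lost without mdx replicate 1 (-0.77, adjusted p = 0.337) or 3 (-1.74, adjusted p = 0.059), or control replicate 1 (-1.66, adjusted p = 0.089) or 2 (-1.56, adjusted p = 0.11). It was also lost with only the 6 arrays of that age in the fit (adjusted p = 0.162) and without the arrays with high albumin (-1.66, adjusted p = 0.115). The other tested probe sets for Rps28 were -0.17 (100758_at, adjusted p = 0.561) and -0.85 (98086_r_at, adjusted p = 0.0754).

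Other settings added members beside Rpl41 as lower over all ages. Scaling arrays to the same median added Rps28 98086_r_at (-0.42, adjusted p = 0.0367), as did leaving out control replicate 1 at 112 days (-0.40, adjusted p = 0.0241). Without mdx replicate 2 at 56 days, the 56-day calls were 2 higher and 6 lower. Beside Rpl41 and Rps28 98085_f_at (-2.61), the lower ones were Rps24 97696_r_at (-1.17), Rplp0 (-1.01), Rps7 (-0.70) and Rpl6 (-0.51). Rpl41 itself was called lower over all ages in every refit but the one with the actin ratio as a covariate, given further on.

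The Gapdh 3' to 5' control ratio divides the signal of the probe set named for the end of the Gapdh message by that of the one named for its start. Such ratios are usually above 1, and what this one measures here was not established. It was below 1 on all 36 arrays, from 0.0357 to 0.971. At 7 days it was 0.83, 0.32 and 0.704 in mdx and 0.147, 0.0555 and 0.0357 in controls. It was 0.66, 0.105 and 0.0558 in mdx and 0.244, 0.036 and 0.0578 in controls at 28 days, and 0.198, 0.888 and 0.128 in mdx and 0.761, 0.542 and 0.152 in controls at 56 days. At 112 days it was 0.532, 0.574 and 0.665 in mdx and 0.93, 0.518 and 0.81 in controls. At 14 days it was 0.654, 0.942 and 0.872 in mdx and 0.831, 0.694 and 0.971 in controls. The groups were separated at 7 days, mdx above control, and overlapped at 14, 28, 56 and 112 days. At 23 days all 3 mdx arrays, at 0.431, 0.493 and 0.438, again lay above the controls, at 0.357, 0.361 and 0.35.

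Within groups of the same age and genotype, a few bright members followed this ratio, Rpl41 most steeply. The slope of log2 signal on log2 ratio was called for 4 of 38 members (10.5%), all positive, against 0.463% of all probe sets, of which 0.441% were positive. Rpl41 had the steepest slope of the members, 1.09 ± 0.192 (SE, adjusted p = 0.00993), meaning that its signal about doubled where the ratio doubled. It was followed by Rps28 98085_f_at (0.52 ± 0.109, adjusted p = 0.0259), by Rps24 97696_r_at (0.30 ± 0.0661, adjusted p = 0.0332), a small-subunit protein needed to mature its rRNA, and by Rpl19 97483_at (0.22 ± 0.0506, adjusted p = 0.0471). Just outside the threshold were Rpl6 (0.15, adjusted p = 0.0519), Rps18 (0.19, 0.0528), Rplp0 (0.25, 0.0599) and Rps3 (0.17, 0.0712). The slope of Rpl13a was -0.06 (adjusted p = 0.971) and that of Rpl10a 100711_at -0.01 (adjusted p = 0.999).

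Slopes went with probe set brightness. Among the 20 members with a mean signal above 10000, 18 slopes were positive with a median of 0.15, and all 4 calls were among them. Among the other 18, 8 were positive with a median of -0.01. This limit was chosen after the values were seen and was not tested. Probe sets of 1 gene differed too. The dim probe sets for Rpl19 (161961_at), Rps24 (93121_at) and Rps28 (98086_r_at) had slopes of -0.19, -0.03 and -0.03. Bright Rps28 100758_at had a slope of 0.08 (adjusted p = 0.914).

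The slope calls rest on few arrays. None was called without mdx replicate 2 at 56 days (Rpl41 0.96, adjusted p = 0.13), and 1 without mdx replicate 2 at 7 days, mdx replicate 1 at 28 days, or control replicate 1 or 2 at 28 days. There were 2 without control replicate 3 at 56 days, 7 without mdx replicate 3 at 28 days or mdx replicate 1 at 56 days, and 9 without mdx replicate 3 at 56 days. Leaving out the arrays with high albumin, only Rpl41 was called (1.11, adjusted p = 0.0396), and Rps28 98085_f_at, Rps24 97696_r_at and Rpl19 97483_at were not (adjusted p of 0.155, 0.171 and 0.178). Quantile normalization gave 1 positive call, Rpl41 (1.06, adjusted p = 0.0133), and 1 negative, Rpl7 (-0.17, adjusted p = 0.0072), and the other 3 members were lost (adjusted p of 0.148, 0.78 and 0.86). With the actin 3' to 5' ratio in place of the Gapdh ratio no member was called (Rpl41 0.81, adjusted p = 0.878).

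**Figure D3:**
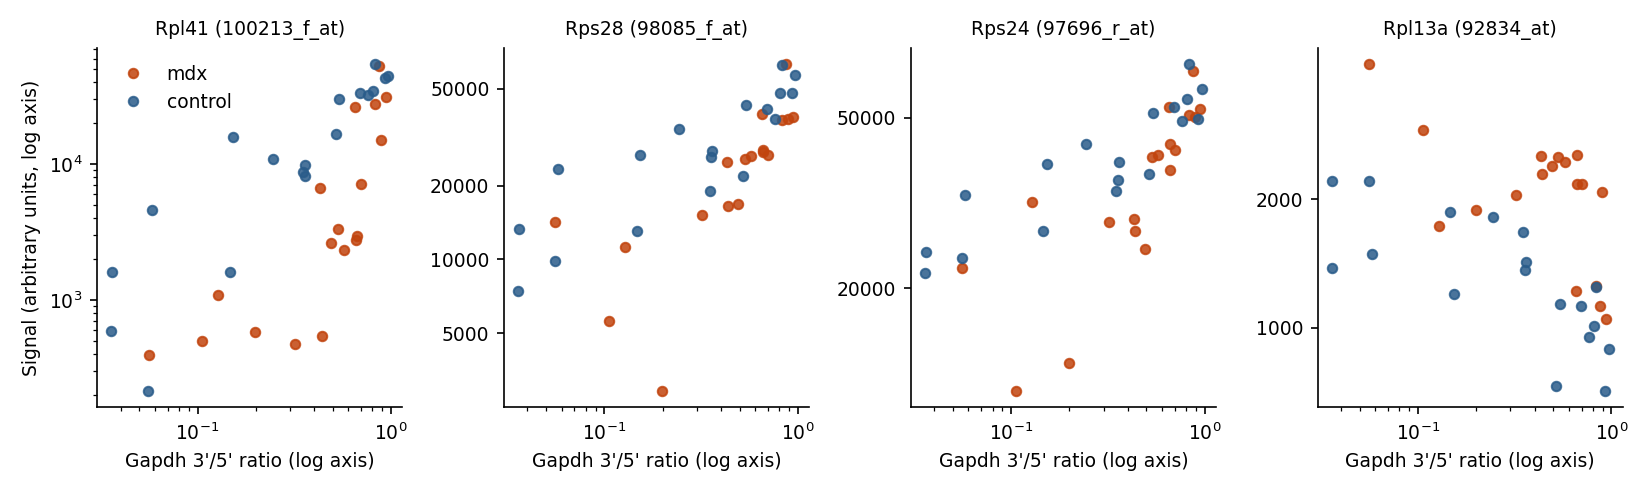
Signal in arbitrary units (log axis, a separate scale in each panel) against the Gapdh 3' to 5' control ratio (log axis) on all 36 arrays for Rpl41, Rps28 98085_f_at, Rps24 97696_r_at and Rpl13a, with mdx and control arrays in different colours. Arrays of different ages are pooled here, while the slopes in the text, 1.09, 0.52, 0.30 and -0.06 in the order of the panels, are within groups.

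With the ratio as a covariate, the mean difference of Rpl41 over ages was -2.10 ± 0.324 (SE, adjusted p = 1.74e-05). Its 7-day difference was -0.51 (adjusted p = 0.94), in place of 2.89, while 28 days became a call (-3.41, adjusted p = 0.0075) and 56 and 112 days stayed calls (-2.98, adjusted p = 0.00606, and -3.00, adjusted p = 0.00585). Rpl41 was no longer the only member lower over all ages. Rps28 98085_f_at (-0.67, adjusted p = 0.00972) and Rps24 97696_r_at (-0.40, adjusted p = 0.011) joined it, in 5 calls of 38 (background 17.7%). With the actin ratio as a covariate, Rpl41 was not called over all ages (-0.93, adjusted p = 0.192) or at 112 days (-2.24, adjusted p = 0.202), where the actin ratio was 0.193, 0.403 and 0.937 in mdx and 1.68, 0.53 and 1.41 in controls. What part of the Rpl41 difference belongs to what these ratios measure was not tested.

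Rpl13a was higher in mdx diaphragm at every age from 23 days on. It encodes a large-subunit protein that in human monocytes can also leave the ribosome to take part in silencing of inflammatory messages. At 7 days it read 1255, 2047 and 2169 in mdx and 1868, 2208 and 2212 in controls, and at 14 days 1219, 1045 and 1125 in mdx and 1246, 1125 and 891 in controls. These groups overlapped. At 23 days it read 2526, 2394 and 2295 in mdx and 1362, 1423 and 1675 in controls, and at 28 days 2549, 2919 and 4157 in mdx and 1823, 1377 and 1489 in controls. At 56 days the signals were 1884, 2081 and 1730 in mdx and 950, 1134 and 1196 in controls, and at 112 days 2513, 2443 and 2168 in mdx and 709, 728 and 1011 in controls. At these 4 ages every mdx array lay above every control array.

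The log2 difference of Rpl13a, with an SE of 0.185 at each age, was called at all 4. It was 0.69 (adjusted p = 0.0302) for 23-day, 1.00 (adjusted p = 0.000857) for 28-day, 0.78 (adjusted p = 0.00372) for 56-day and 1.52 (adjusted p = 5.61e-07) for 112-day diaphragm. Over all ages the difference was 0.64 ± 0.0755 (SE, adjusted p = 1.54e-07). The calls at 28, 56 and 112 days and over all ages held with each array left out. The 23-day call was lost without mdx replicate 1 or 2 or control replicate 1 or 2 of that age. With arrays scaled to the same median neither the 23-day difference (0.63, adjusted p = 0.108) nor the 56-day one (0.52, adjusted p = 0.0792) was a call. The difference depended on age in the F test (adjusted p = 0.000226), where 3 members were called against 8.93% of all probe sets. Macrophage markers were higher on all mdx than on all control arrays at the 4 ages where Rpl13a was called. They were so at 14 days too, where Rpl13a overlapped, with sums of 19663 to 26455 in mdx and 16061 to 18020 in controls. The part of these markers in the Rpl13a difference was not tested.

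Rpl10a, a protein of the L1 stalk of the large subunit, was the other member called higher over all ages, by 0.23 ± 0.077 (SE, adjusted p = 0.0352) for 100711_at. Its calls came at the last age. At 112 days 100711_at read 15680, 18170 and 14303 in mdx and 6717, 9642 and 12776 in controls, with no overlap (0.76 ± 0.189, adjusted p = 0.00547), but leaving out control replicate 1 ended the call (0.52, adjusted p = 0.0778). The same comparison for 161327_f_at gave 12785, 6927 and 8697 in mdx and 3871, 7798 and 6556 in controls, which overlapped (0.65 ± 0.261, adjusted p = 0.104). At 28 days 100711_at read 24925, 20945 and 23352 in mdx and 17140, 16913 and 15741 in controls, separated but not called (0.47, adjusted p = 0.233). At 7 days it read 11875, 22514 and 21568 in mdx and 26236, 22397 and 25133 in controls (-0.45, adjusted p = 0.375), a lower mdx mean with overlap. The call over all ages was lost for 13 of the 36 arrays left out in turn (highest adjusted p = 0.0641), with arrays scaled to the same median (0.15, adjusted p = 0.304) and with the actin ratio as a covariate (0.20, adjusted p = 0.135). With only the arrays of that age in the fit the 112-day difference was not a call (adjusted p = 0.114).

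**Figure D4:**
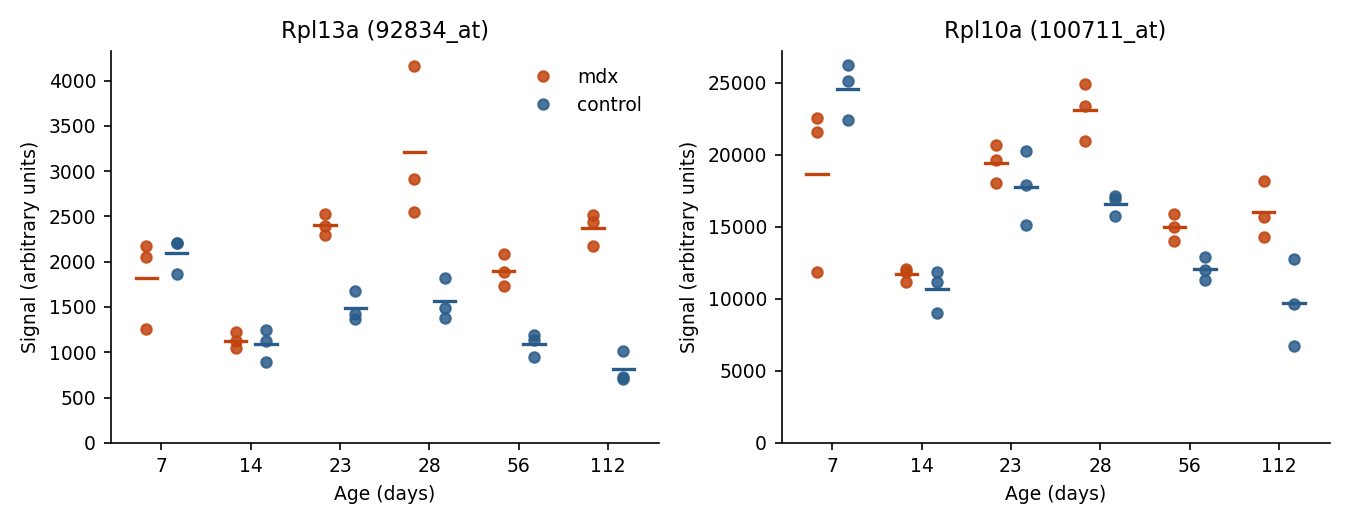
Signal of Rpl13a (92834_at) and Rpl10a (100711_at) in arbitrary units against age in days, with 1 point per array, mdx left of control, and lines at the mean of the 3 arrays. For Rpl13a every mdx point lies above every control point from 23 days on, and for Rpl10a this is so at 28, 56 and 112 days.

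At 112 days 3 bright members were higher in mdx beside Rpl13a and Rpl10a. Rps3, which lines the entry of the message channel in the small subunit, read 25135, 27295 and 25621 in mdx and 15215, 13590 and 21573 in controls (0.66 ± 0.206, adjusted p = 0.0317). Rpl7, of the large subunit, read 40337, 38964 and 35778 in mdx and 23616, 24809 and 30416 in controls (0.55 ± 0.133, adjusted p = 0.00431). Rps10, of the small subunit, read 26572, 30859 and 27571 in mdx and 18700, 17068 and 22004 in controls (0.56 ± 0.162, adjusted p = 0.0186). For all 3 genes the groups did not overlap, and at 56 days their differences were -0.26, -0.11 and 0.15 with no call. With arrays scaled to the same median these 3 calls were lost (adjusted p of 0.112, 0.0554 and 0.0907), Rps27 was called lower (-0.44, adjusted p = 0.0432), and the split was 2 higher and 2 lower. With quantile normalization it was 11 higher and 1 lower. Rps3 was lost without any 1 of 5 arrays of that age and Rps10 without any 1 of 3, with an adjusted p of up to 0.164 and 0.0961. Without the arrays with high albumin, which leaves 1 control and 2 mdx arrays at this age, Rps3, Rpl7 and Rps10 had differences of 0.74, 0.69 and 0.53. None of the 3 was called with only the 6 arrays of that age in the fit (adjusted p of 0.118, 0.153 and 0.127). Macrophage and fibroblast and matrix markers were higher on all mdx than on all control arrays at this age, and their part in these differences was not tested. In all, 2 members were called without control replicate 1 and 3 without mdx replicate 2, none of them lower.

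At 56 days Rps27 and Rpl19 161961_at were the other members called higher. Rps27, a zinc-binding small-subunit protein, read 3408, 3248 and 3551 in mdx and 2120, 2543 and 2570 in controls (0.50 ± 0.161, adjusted p = 0.0322). For Rpl19 161961_at the signals were 1090, 296 and 861 in mdx and 178, 98.3 and 173 in controls (1.96 ± 0.657, adjusted p = 0.0384). The groups did not overlap for either probe set, and both calls were lost in 5 of the 36 refits with an array left out, with an adjusted p of up to 0.151 for Rps27 and 0.163 for Rpl19 161961_at. The bright probe set for Rpl19, 97483_at, read 9590, 27613 and 19757 in mdx and 25565, 23974 and 17996 in controls, overlapping and with a difference of -0.36 (adjusted p = 0.325). The 56-day count of called members was 1 without mdx replicate 1 or control replicate 1, and 2 without mdx replicate 3 or control replicate 2. In none of these 4 refits was a member called lower. With only the 6 arrays of that age in the fit, 5 were called higher and 0 lower (background 11.4%). There Rps4x 161654_r_at (1.75, adjusted p = 0.0405) and Rpl22 92856_at (1.14, adjusted p = 0.0457) joined Rpl13a, Rps27 and Rpl19 161961_at. Without the arrays with high albumin, 2 members were called higher at 56 days and 0 lower (background 12.9%). That refit leaves 1 control array at 112 days, so its calls at that age are not counted.

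The paralog Rpl7l1 was dim and was not called in any comparison. Its difference was 0.07 ± 0.116 (SE) over all ages (adjusted p = 0.762). Rpl39l and Rps27l were below the threshold for testing, with mean signals of 159 and 84.5.

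The change with age was compared within each genotype as 112 minus 7 days. It spans growth from pup to adult, and ageing below means only this difference. In mdx diaphragm no member was called, against 17.4% of all probe sets, and 3 had an unadjusted p under 0.05, namely Rps29 98523_at, Rpl13a and Rps4x 161654_r_at. Differences there ran from -0.69 to 1.43 with a median of 0.11, against 0.04 for all probe sets. In control diaphragm 17 of 38 members were called (44.7%), against 41.7% of all probe sets. Of these 10 were higher at 112 days (background 21.4%) and 7 lower (background 20.3%), with a median of -0.02, against 0.10 for all probe sets. Quantile normalization gave 7 higher and 14 lower. Without the arrays with high albumin, which leaves 1 control array at 112 days and 2 at 7 days, the split was 4 higher and 6 lower (background 24.8%).

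Among the 10 higher in control diaphragm at 112 days, Rpl41 changed by 5.54 ± 1.06 (SE, adjusted p = 0.000124), with 43025, 16659 and 34855 at 112 days and 1605, 213 and 588 at 7 days. Rps28 98085_f_at changed by 1.91 (adjusted p = 0.00703), with 48032, 21851 and 48130 at 112 days and 13015, 9868 and 7414 at 7 days. Rpl37a, a large-subunit zinc-binding protein, changed by 1.50 (adjusted p = 0.00319), with 13691, 16214 and 14996 at 112 days and 6525, 5757 and 3878 at 7 days. The 112-day arrays lay above the 7-day arrays for all 3 genes. The others were Rps4x 162244_r_at (1.45), Rps24 93121_at (1.17) and 97696_r_at (0.96), Rps13 (1.13), Rps29 98523_at (0.95), Rplp0 (0.82) and Rps27 (0.56). Without the arrays with high albumin Rpl41 (6.09, adjusted p = 0.0108), Rps24 93121_at, Rps29 98523_at and Rps27 were still called. The 6 that were not were Rps28 98085_f_at (2.08, adjusted p = 0.101), Rpl37a (1.16, adjusted p = 0.198), Rps13 (1.48, adjusted p = 0.131), Rps4x 162244_r_at (1.35, adjusted p = 0.202), Rps24 97696_r_at (0.98, adjusted p = 0.208) and Rplp0 (0.76, adjusted p = 0.263).

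The strongest fall was that of Rps19, the small-subunit protein first linked to Diamond-Blackfan anaemia in humans, by -1.54 ± 0.363 (SE, adjusted p = 0.00126). It read 4007, 4900 and 5401 at 112 days and 16513, 9460 and 16802 at 7 days. Rpl10a was lower with both probe sets, at -1.38 (100711_at, adjusted p = 1.06e-06) and -1.28 (161327_f_at, adjusted p = 0.000249). Rpl13a changed by -1.34 ± 0.185 (SE, adjusted p = 1.26e-06), with 709, 728 and 1011 at 112 days and 1868, 2208 and 2212 at 7 days. No 112-day array reached a 7-day array for Rps19, Rpl13a or either probe set for Rpl10a. The remaining falls were those of Rps28 100758_at (-0.93), Rpl22 92857_at (-0.48) and Rpl7 (-0.34). Of the 7, Rpl7 alone was not called without the arrays with high albumin (-0.51, adjusted p = 0.0941).

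Probe sets of 1 gene did not always share a call. Rps28 gave the only opposite calls, with 100758_at lower (-0.93, adjusted p = 0.000206) and 98085_f_at higher (1.91) in ageing controls, and 98086_r_at not called (-0.23). Rpl22 92857_at fell while 92856_at did not pass (0.86, adjusted p = 0.101). Rps4x was called with 1 of its 4 tested probe sets and Rps29 with 1 of 2. Over the 7 genes with several tested probe sets and 12 comparisons, calls differed in 13 of 84 cases, of which 1 was opposite.

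The Gapdh ratio differed between the ages in controls, at 0.93, 0.518 and 0.81 at 112 days and 0.147, 0.0555 and 0.0357 at 7 days, without overlap. With the ratio as a covariate, 3 members were higher and 10 lower in ageing controls (background 24.7%), in place of 10 and 7. Of the 10 rises 3 remained, those of Rps4x 162244_r_at, Rps24 93121_at and Rps27. Rpl41 was 1.76 (adjusted p = 0.196) and Rps28 98085_f_at 0.09 (adjusted p = 0.923). Rplp0 and Rps24 97696_r_at turned to -0.04 and -0.10. Of the 7 falls 5 remained, those of Rps19, Rpl13a, both probe sets for Rpl10a and Rps28 100758_at, and the 5 new falls were those of Rps3, Rpl6, Rpl19 97483_at, Rps18 and Rps10. The members' median was -0.18 with the ratio and -0.02 without. As the ratio is largely tied to age here, the effects of age and of what the ratio measures cannot be told apart in full.

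**Figure D5:**
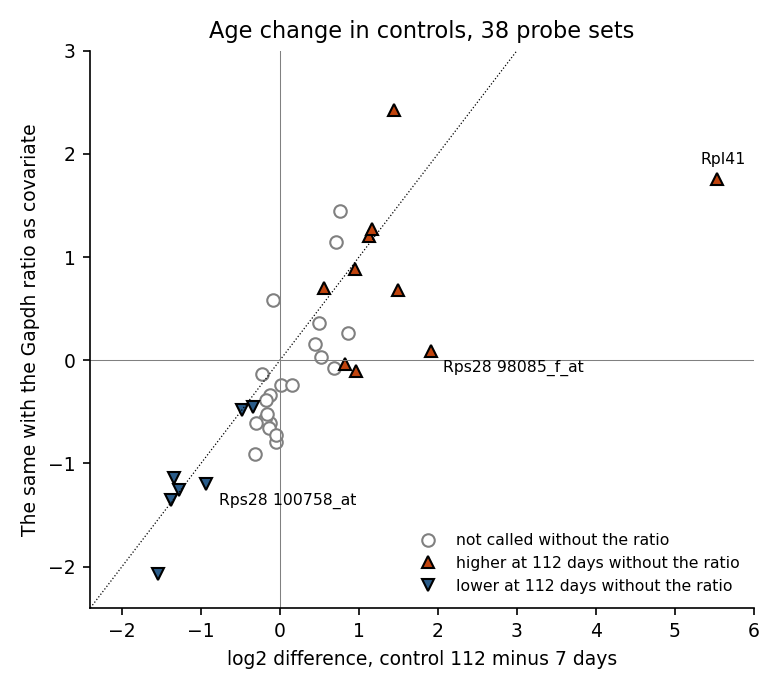
Log2 difference of the 38 tested probe sets in control diaphragm, 112 minus 7 days, on the horizontal axis, and the same difference with the Gapdh control ratio as a covariate on the vertical axis, with symbols showing the call without the ratio. The dotted line marks equal values, 6 of the 10 rises lie below it, and Rpl41 stands at 5.54 and 1.76.

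The ageing of the 2 genotypes was compared directly as mdx minus control of the 112 minus 7 day difference. Of 38 members 4 were called (10.5%, background 9.85%), 3 higher (background 6.25%) and 1 lower (background 3.59%). Rpl41 had -6.23 ± 1.5 (SE, adjusted p = 0.00661), made of -0.69 in mdx and 5.54 in controls. Rpl13a had 1.75 ± 0.262 (adjusted p = 3.44e-05), made of 0.41 in mdx and -1.34 in controls, and Rpl10a 100711_at had 1.22 ± 0.267 (adjusted p = 0.00314). Rpl7 had 0.57 ± 0.188 (adjusted p = 0.0491), a call lost in 29 of 36 refits with an array left out. With the Gapdh ratio as a covariate Rpl41 had -2.50 (adjusted p = 0.273) and Rpl13a 1.56 (adjusted p = 0.00213). The value for Rpl41 without the arrays with high albumin was -5.36 (adjusted p = 0.212).

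Genes that build or work with ribosomes were read with 1 probe set per gene. Of 41 tested genes for ribosome assembly and rRNA synthesis, 10 were higher in mdx over all ages and 0 lower, where the backgrounds of 10.4% and 7.41% given above apply. Their median was 0.10, against 0.03 for all probe sets. Myc, a transcription factor that drives ribosome production, was higher by 0.82 ± 0.149 (SE, adjusted p = 0.000136). Nop58, a core protein of box C/D small nucleolar particles, was higher by 0.47 (adjusted p = 0.000768), Eif6, which keeps new large subunits from joining too early, by 0.32 (adjusted p = 0.00182), and Nhp2, of box H/ACA particles, by 0.30 (adjusted p = 0.0108). With arrays scaled to the same median, 3 were higher and 1 lower. In ageing controls 3 of the 41 were higher at 112 days and 15 lower, among them Myc (-2.08), Nolc1 (-1.44), Polr1d (-1.18) and Ncl (-1.13), against backgrounds of 21.4% higher and 20.3% lower. With the Gapdh ratio as a covariate 0 were higher and 7 lower, where 24.7% of all probe sets were called either way. Without control replicate 2 at 112 days 1 was higher and 10 lower, and the share of all probe sets is not given for that refit. Leaving out the arrays with high albumin leaves 1 control array at 112 days, so its counts for these lists are not given. The 3 higher ones were Rrn3 (0.61), Rrp9 (0.54) and Bysl (0.53).

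Proteins of the mitochondrial ribosome, which translates only messages of the mitochondrial genome, were called lower in mdx in part. Of 60 tested genes 0 were higher over all ages and 13 lower, where 7.41% of all probe sets were lower, and the median was -0.11. The largest differences were those of Mrpl2 (-0.30, adjusted p = 0.000904), Mrps28 (-0.29, adjusted p = 0.00516), Mrpl16 (-0.25, adjusted p = 0.000178) and Mrps18a (-0.24, adjusted p = 0.00629). The count was 26 lower with arrays scaled to the same median, and 1 higher and 4 lower without the arrays with high albumin. In ageing controls 16 of the 60 were higher and 14 lower, against the same 21.4% and 20.3%. The balance was 10 higher and 5 lower with the Gapdh ratio as a covariate, where 24.7% of all probe sets were called either way. It was 13 and 6 without control replicate 1 at 112 days, for which the share of all probe sets is not given. The largest differences were those of Mrpl42 (1.12), Mrpl55 (0.98), Mrps33 (0.82) and Mrpl34 (0.72), and of Mrpl54 (-1.30), Mrps10 (-1.27), Mrpl20 (-0.95) and Mrps34 (-0.78).

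The median of 11 tested genes with other TOP messages or acting beside the ribosome was 0.19 over all ages. With the actin ratio as a covariate 3 were higher in mdx, where 13.8% of all probe sets were called either way. In the main fit 5 were higher (background 10.4%) and 0 lower (background 7.41%). They included the RNAs Snhg1 (0.43, adjusted p = 4.99e-05) and Gas5 (0.33, adjusted p = 7.96e-06), which host small nucleolar RNAs in their introns, Rps4l (0.37, adjusted p = 0.000307), a relative of Rps4x, and Nap1l1 (0.29, adjusted p = 0.00292), a histone chaperone. In ageing controls 0 were higher (background 21.4%) and 5 lower (background 20.3%). Among these were Rps4l at -1.53, Gas5 at -0.78, Snhg1 at -0.73 and Btf3 at -0.66. Of 34 tested translation factors, 4 were higher in mdx over all ages (background 10.4%) and 1 lower (background 7.41%), with a median of -0.01. Array weights gave 7 higher and 1 lower, where 20.9% of all probe sets were called either way. The actin ratio as a covariate gave 2 higher and 1 lower, where 13.8% were called either way. The 4 were Eif1a (0.37), Pabpc1 (0.27), Eif3l (0.18) and Eif3d (0.18), and the lower was Eif4ebp2 (-0.25), a repressor of cap-dependent translation. In ageing controls 6 translation factors were higher (background 21.4%) and 9 lower (background 20.3%). They ran from Eef1a1 at 1.63, the elongation factor that brings tRNA to the ribosome, to Eif1ax at -1.39. No gene of these 4 lists was called for a slope on the Gapdh ratio.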

How the data were processed

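Total RNA was measured on 36 arrays, 12 groups of 3. The authors deposited 1 linear intensity per probe set and array, read as such from the value table. The sources used here do not name the software that made it from the scans. Leaving out values outside percentiles 2 to 98, the array mean was 1499.2 to 1499.7 on every array, 0 pairs of columns were identical, and arrays of a group correlated with r of 0.884 to 0.975. The 66 control probe sets were left out of tests. All columns matched a sample (0 unused).

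The authors' intensities were converted here to log2(value + 32). Probe sets with at least 3 arrays above percentile 40 (374.5) were kept, 9291 of 12422. limma 3.58.1 (R 4.3.3) fitted 12 group means with trended eBayes (degrees of freedom: 24 residual, 6.14 prior as a median) and Benjamini-Hochberg adjustment. Further fits added the log2 Gapdh or actin control ratio or centred each array on its members. Symbols came from the platform annotation, and all 47 member probe sets matched RefSeq with 0 symbols changed. The script was tested on simulated data. The few arrays limit the precision.

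Members, lists and comparisons were chosen with earlier results of these data known. Named were Rpl41, the members called over all ages, the 5 largest rises and falls called in every other comparison, the 3 brightest and 3 dimmest, paralogs, members whose probe sets differed in call, and per list up to 4 called genes each way. Members named as added by an alternative, as just outside a threshold or beyond the 5 largest were chosen after their values were seen.

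Alternatives were pseudocounts of 8 and 128, no filter, percentile 60, quantile and median scaling, array weights, a replicate block, only the arrays compared, both control ratios, no arrays with albumin above 10000, 1 probe set per gene, and each array left out.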

Additional observations from a re-analysis of the deposited data

Results flagged for a closer look

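The difference between mdx and control diaphragm changed with age for 3 members by limma's F test (7.89%), against 8.93% of all probe sets. The adjusted p was 0.000226 for Rpl13a, 0.0246 for Rpl41 and 0.0371 for Rpl10a (100711_at). The change between 7 and 112 days differed between the genotypes for 4 members (10.5%), against 9.85% of all probe sets. These shares lay near those of all probe sets. The log2 value, mdx minus control, was -6.23 for Rpl41, 1.75 for Rpl13a, 1.22 for Rpl10a (100711_at) and 0.57 for Rpl7. At 7 days the Gapdh control ratio was 0.32 to 0.83 in mdx and 0.0357 to 0.147 in controls, and its part in these differences was not tested.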

How the results depend on the processing

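Changing the pseudocount kept every count of called members within 1.5 times. In brackets after each count stands the share of all probe sets called in the same setting. No filter gave 5 members over all ages (13.1%), and the filter at percentile 60 gave 7 slopes (0.902%). Quantile normalization gave 0 at 23 days (2.31%), 12 at 112 days (13.6%) and 8 over all ages (16.3%). It also gave 7 in the F test (8.55%), 10 for the difference in ageing (10.7%) and 2 slopes (0.0969%). Scaling to the same median gave 0 at 23 days (2.88%), and 1 higher and 2 lower over all ages (19.0%). Array weights gave 2 at 23 days (13.9%), 5 over all ages (20.9%) and 7 in the F test (17.3%). They also gave 2 for ageing in mdx (21.3%) and 9 slopes (0.915%). Only the arrays compared gave 5 higher and 0 lower at 56 days (11.4%), 2 at 112 days (3.61%) and 2 for the difference in ageing (3.64%). The Gapdh ratio gave 2 at 28 days (2.96%) and 5 over all ages (17.7%). The actin ratio gave 0 at 23 days (3.07%), 1 in the F test (6.85%) and 0 slopes (0%). The mdx minus control difference of Rpl41 relative to the family, over all ages, was -0.93 there (adjusted p = 0.0745). Without the arrays with albumin above 10000 there were 2 at 28 days (3.42%) and 2 at 56 (12.9%). For ageing in mdx there were 4 (19.7%), and for the slope 1 (0.0861%). That refit leaves 1 control array at 112 days, so comparisons with that group are not counted in this section. With arrays left out in turn the counts were 0 to 1 at 7 and 23 days, 0 at 14 and 1 at 28. They were 1 to 8 at 56 days, 2 to 8 at 112 and 2 to 6 over all ages. The F test gave 1 to 5, ageing in controls 12 to 17 and ageing in mdx 0 to 4. The difference in ageing gave 3 to 7 and the slope 0 to 9. The mdx minus control difference of Rpl41 relative to the family was -1.71 to -1.23 over all ages. Signs turned for Rpl41 at 7 days (-0.51), and for Rplp0 (-0.04) and Rps24 97696_r_at (-0.10) in ageing controls with the Gapdh ratio. They also turned for Rpl41 in ageing mdx (-0.69), to 0.07 with array weights, 0.73 without the arrays with high albumin and 0.59 without mdx replicate 1 at 7 days (range over left-out arrays -2.30 to 0.59). Single arrays moved counts by over 1.5 times beyond those named in the report. Over all ages 6 members were called without control replicate 1 at 28 days. The F test gave 1 without control replicate 3 or mdx replicate 1 at 7 days, and 5 without mdx replicate 1 at 28 days, mdx replicate 2 at 56 or control replicate 3 at 112. Ageing in mdx gave 4 without mdx replicate 1 at 7 days and 2 without mdx replicate 1 at 112, and its difference 7 without control replicate 3 at 112. At 7 days 1 was called without mdx replicate 2 of that age or mdx replicate 1 at 56. For the refits with 1 array left out the share of all probe sets called is not given. Those counts show only how far they move. The causes were not tested.

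No clear pairing by replicate number was seen, as 1 of 18 same-numbered pairs correlated above 0.1 (-0.225 to 0.147). This cannot exclude a shared litter, day or batch, on which the labels are silent. The replicate block gave 8 slopes, where 0.603% of all probe sets were called, and moved no other count of called members by over 1.5 times. Of 41 called results for single members, it lost 1, Rpl7 in the difference in ageing (adjusted p = 0.0576).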
